A study of Mus musculus with 9 samples.

Results

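The genes described here are those of 3 families known from fetal and embryonic stem cells: Lin28a and Lin28b, Hmga1 and Hmga2, and Igf2bp1, Igf2bp2 and Igf2bp3. Members were taken by symbol, as all probe sets of the array that the platform annotation pairs with 1 of these 7 names. Of the 18193 genes with a value, 5 were members, and they had 17 of the 45037 probe sets that were not controls: 2 for Lin28a, 1 for Lin28b, 4 for Hmga2, 4 for Igf2bp1 and 6 for Igf2bp3. Hmga1 and Igf2bp2 were not analysed here, since no probe set carried their symbol in the annotation used. Values are GCRMA log2 levels per probe set, so a step of 1 is a 2-fold step. A probe set was tested when it reached 5 on at least 3 of the 9 arrays, which 19914 probe sets did. The 4 probe sets of Hmga2 and the 6 of Igf2bp3 passed that filter, and the 7 of Lin28a, Lin28b and Igf2bp1 did not.

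The study measured RNA from neurospheres, colonies of progenitor cells grown floating in serum-free medium, on 9 Affymetrix mouse arrays. All spheres came from C57BL/6J embryos of embryonic day 12.5, were at passage 3, and had been fed 20 ng/ml bFGF and 20 ng/ml EGF in a heparin, N2 and B27 medium. SCSC (3 arrays) were grown from spinal cord. rNCSC (3 arrays) were grown from dorsal root ganglia, and BMP NCSC (3 arrays) from dorsal root ganglia with 10 ng/ml of the growth factor BMP4 added to that medium. Whether the 3 arrays of a group stand for separate cultures is not stated in the labels, so each p-value measures the spread between these arrays, which may be technical. Both comparisons with BMP NCSC use the same 3 BMP NCSC arrays. SCSC differed from BMP NCSC in tissue as well as in BMP4, which cannot be told apart in that comparison.

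Lin28 proteins bind the precursors of the let-7 microRNAs and keep them from being processed, in part by recruiting enzymes that add uridines to the precursor. Mature let-7 in turn represses messages that carry its target sites, among them Lin28a, Lin28b, Hmga2 and Igf2bp family members. Hmga proteins bind the minor groove of AT-rich DNA and change chromatin shape, and Hmga2 is known for sustaining self-renewal of young neural stem cells. Igf2bp proteins bind messages in the cytoplasm and affect their stability, transport and translation. Most of these genes are known to be switched down as development proceeds.

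The mature let-7 microRNAs that join these families were not measured on the arrays, and their sequences are shown because the seed, bases 2 to 8, is what pairs with the target messages. In the RefSeq sequences of build GRCm38.p6, 10 mature mouse let-7 family names shared the seed GAGGUAG and 1 carried GAGGUAU. The seed is in capitals in 5 of them, 5′ to 3′.
mmu-let-7a-5p: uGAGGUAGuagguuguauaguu
mmu-let-7g-5p: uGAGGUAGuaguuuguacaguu
mmu-let-7d-5p: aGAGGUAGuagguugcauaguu
mmu-miR-98-5p: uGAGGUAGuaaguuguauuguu
mmu-let-7j: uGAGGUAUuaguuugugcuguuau
Lin28 recognises the loop of the precursor, where the letters GGAG are its known contact. Between the arms of the hairpin, GGAG was found in 8 of 11 let-7 family hairpins (72.7%), against 52 of 644 mouse hairpins with both arms listed (8.07%). The hairpin of Mirlet7g, on the plus strand at chr9:106178840-106178927, is shown as one with the motif (in capitals), and that of Mirlet7b, on the plus strand at chr15:85707319-85707403, as one without it between its arms.
Mirlet7g: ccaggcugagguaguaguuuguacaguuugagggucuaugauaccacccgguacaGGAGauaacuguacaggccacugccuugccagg
Mirlet7b: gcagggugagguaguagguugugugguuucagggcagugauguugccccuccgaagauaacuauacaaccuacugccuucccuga

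The arrays were alike in overall level, with medians between 3.98 and 4.03, and 60.8% of all values lay below 5. Marker lists were read before the members. The mean log2 level of 9 CNS progenitor markers with a value lay at 11.55 to 11.80 in rNCSC, 11.61 to 11.82 in SCSC and 4.16 to 4.37 in BMP NCSC. For 7 neural crest and Schwann cell markers the ranges were 3.20 to 4.01 in rNCSC, 3.15 to 3.27 in SCSC and 9.10 to 9.57 in BMP NCSC. The series title calls the peripheral cells neural crest derived, and the defining crest genes Sox10 (4.14), Snai2 (2.96) and Erbb3 (3.08) had rNCSC means below 5. The same contrast was found for 9 mesenchyme and cartilage markers, at 3.86 to 3.98, 3.80 to 4.02 and 11.37 to 12.34. Single genes went apart from these list means. Sox2 of the progenitor list had means of 12.88 in rNCSC, 12.91 in SCSC and 12.55 in BMP NCSC. Sox9 of the cartilage list had 8.73, 8.92 and 7.96, lowest in BMP NCSC. These levels come from whole spheres, where fewer cells of a type and less RNA per cell cannot be told apart. The 9 microglia, endothelial and erythroid markers were below 5 on every array.

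The let-7 regulators of the family came first. Lin28a, which is expressed in embryonic stem cells, was low on every array. Probe set 1421749_at read 2.83, 2.64 and 2.83 in rNCSC, 2.62, 2.60 and 2.97 in SCSC, and 2.79, 2.70 and 2.73 in BMP NCSC. Probe set 1437752_at read 2.44, 2.69 and 2.44 in rNCSC, 2.49, 2.45 and 2.63 in SCSC, and 2.27, 2.28 and 2.32 in BMP NCSC. All 18 values lay between 2.27 and 2.97, far below the level of 5 set for testing. Such values are in the range where GCRMA draws unexpressed transcripts together, so no order of the groups was read from them. The pluripotency genes Pou5f1 (means 2.81, 2.73 and 2.66 in rNCSC, SCSC and BMP NCSC) and Nanog (2.41, 2.35 and 2.18) were as low, and 1 of 12 pluripotency and germ cell markers, Esrrb, reached the tested range.

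Lin28b, its paralog and like it a blocker of let-7 processing, was also below 5 on every array. Its probe set 1430803_at read 3.67, 3.71 and 3.86 in SCSC, 3.09, 3.59 and 1.99 in rNCSC, and 2.10, 2.28 and 2.17 in BMP NCSC. The SCSC arrays lay above all others with a mean of 3.75 ± 0.10 (SD, n = 3), the BMP NCSC arrays lay together at 2.18 ± 0.091, and the rNCSC arrays spread from 1.99 to 3.59, below every SCSC array and on both sides of the BMP NCSC arrays, at 2.89 ± 0.82. SCSC arrays lay wholly above rNCSC arrays for 8.51% of all probe sets. Fitted without the filter, over 45037 probe sets, Lin28b was higher in SCSC than in BMP NCSC by 1.56 (SE 0.33, limma adjusted p = 0.0033). The other differences in that fit were 0.71 between rNCSC and BMP NCSC (adjusted p = 0.11) and -0.86 between rNCSC and SCSC (adjusted p = 0.45). The size of a difference between means under 4 is uncertain on this scale, and no order of rNCSC among the groups was read from Lin28b.

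**Figure D1:**
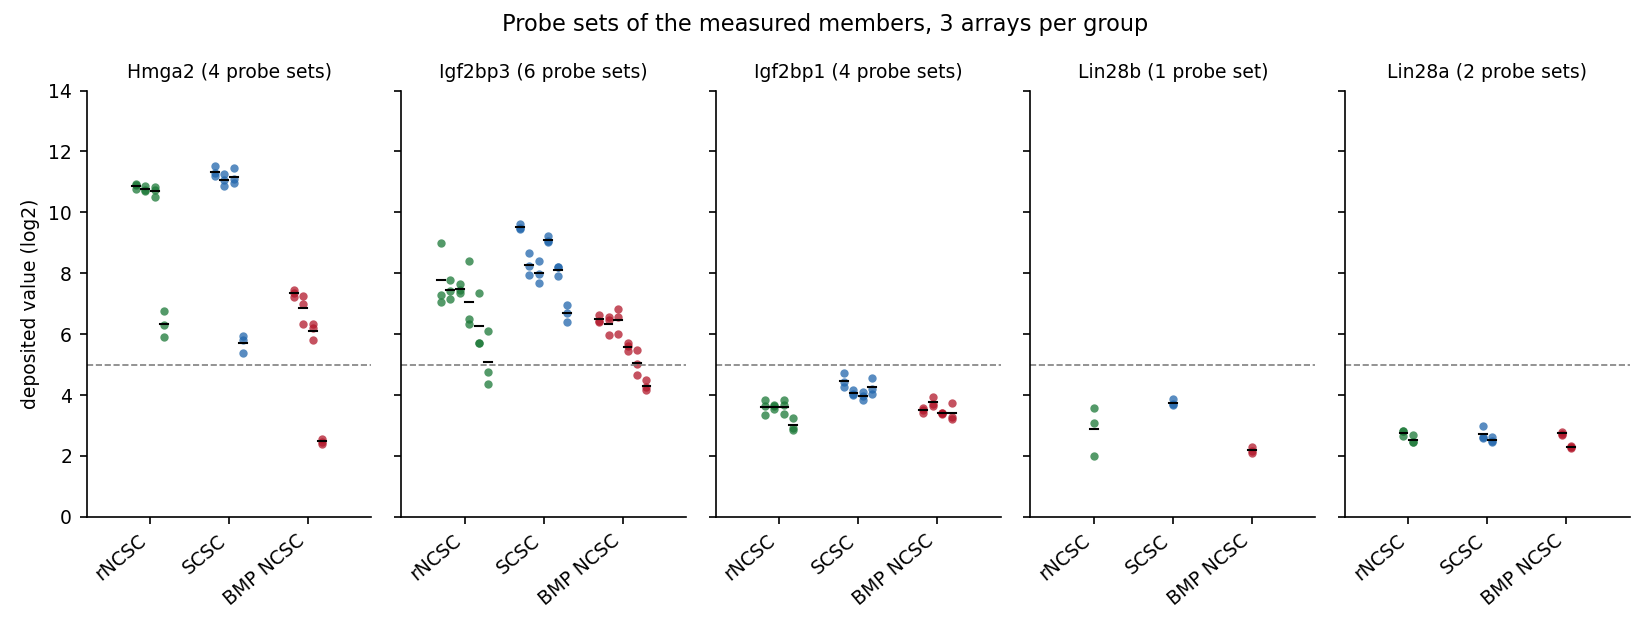
GCRMA log2 level of the member probe sets on each of the 9 arrays, by group (rNCSC, SCSC, BMP NCSC), with 1 point per array, a black bar for the group mean and a dashed line at 5, the level used for testing. The Hmga2 probe sets stand above the line in rNCSC and SCSC and those of Igf2bp3 in SCSC, while Lin28a, Lin28b and Igf2bp1 lie below it on every array.

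Hmga2, the chromatin protein of the family, was the member with the strongest differences of rNCSC and of SCSC from BMP NCSC. Its lead probe set 1450780_s_at, the one with the highest mean over the arrays, read 10.78, 10.92 and 10.90 in rNCSC, 11.51, 11.21 and 11.29 in SCSC, and 7.46, 7.23 and 7.34 in BMP NCSC. The BMP NCSC arrays lay more than 3 log2 units below every other array, and they still stood above 5. The means were 10.87 ± 0.078 in rNCSC, 11.34 ± 0.16 in SCSC and 7.35 ± 0.12 in BMP NCSC (SD, n = 3). Hmga2 was higher in rNCSC than in BMP NCSC by 3.52 (SE 0.11, limma adjusted p = 1.9e-08), which is 11.5-fold. It was higher in SCSC than in BMP NCSC by 3.99 (SE 0.11, adjusted p = 9.1e-09), which is 15.9-fold.

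The other Hmga2 probe sets were also lowest in BMP NCSC. Probe set 1422851_at read 10.87, 10.71 and 10.73 in rNCSC, 11.05, 10.87 and 11.26 in SCSC, and 7.26, 6.34 and 7.00 in BMP NCSC. Probe set 1450781_at read 10.85, 10.72 and 10.50 in rNCSC, 11.47, 11.08 and 10.97 in SCSC, and 6.33, 5.82 and 6.19 in BMP NCSC. Probe set 1446196_at read 6.31, 6.74 and 5.89 in rNCSC, 5.39, 5.81 and 5.93 in SCSC, and 2.56, 2.47 and 2.40 in BMP NCSC. In each of the 3 no BMP NCSC array overlapped with the others. How many of all tested probe sets had no such overlap was not counted. Of the 19914 tested, 14916 had a limma adjusted p below 0.05 at any size for rNCSC against BMP NCSC. For SCSC against BMP NCSC the number was 15265. For 1422851_at and 1450781_at, which stood above 5 in BMP NCSC too, the differences from BMP NCSC were 3.90 and 4.58 for rNCSC and 4.19 and 5.06 for SCSC, with limma adjusted p between 3.4e-08 and 6.1e-07. The highest of these folds was 33.3, for 1450781_at in SCSC. Probe set 1446196_at reached 5 in rNCSC and SCSC and on no BMP NCSC array, so the filter fixed its direction, and its differences of 3.84 and 3.24 have an uncertain size. The pseudogene Hmga2-ps1, which has a probe set of its own, stayed between 2.63 and 3.21 on all 9 arrays.

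The Hmga2 levels of rNCSC and SCSC lay closer to each other. The lead probe set read lower in rNCSC (difference -0.47, 95% interval -0.73 to -0.22, limma adjusted p = 0.20). Its SCSC arrays lay wholly above its rNCSC arrays, as they did for 1450781_at and for 13.0% of all tested probe sets. The other differences of rNCSC from SCSC were -0.29, -0.48 and 0.61, with adjusted p from 0.31 to 0.62. The last of these, from 1446196_at, had the opposite sign to the rest, so the probe sets did not give 1 order for rNCSC and SCSC. Over all 19914 probe sets this comparison had 1 call, Hmga2 not among them, against 2594 with an unadjusted p below 0.05.

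Cell cycle genes moved in the same direction as Hmga2. All 9 cell cycle markers tested were called higher in rNCSC than in BMP NCSC and also in SCSC. Over all 10319 genes tested, 21.3% were called higher in rNCSC and 24.0% in SCSC. The medians of the markers were 5.17 and 5.22, against 0.069 and 0.099 over all genes tested. Examples for rNCSC are Mki67, the Ki-67 proliferation antigen, at 5.50, and Mcm5, a part of the replicative helicase, at 4.03. The mitotic kinases Aurkb and Plk1 reached 5 on no BMP NCSC array, so the filter fixed their direction, and the other 7 reached it in BMP NCSC as well. The mean log2 level of the list was 11.63 to 11.71 on the rNCSC arrays, 11.77 to 11.82 on the SCSC arrays and 6.43 to 7.21 on the BMP NCSC arrays. The progenitor, crest and mesenchyme lists above separated the same groups. The part of cell division and of cell type in the Hmga2 difference was not tested.

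**Figure D2:**
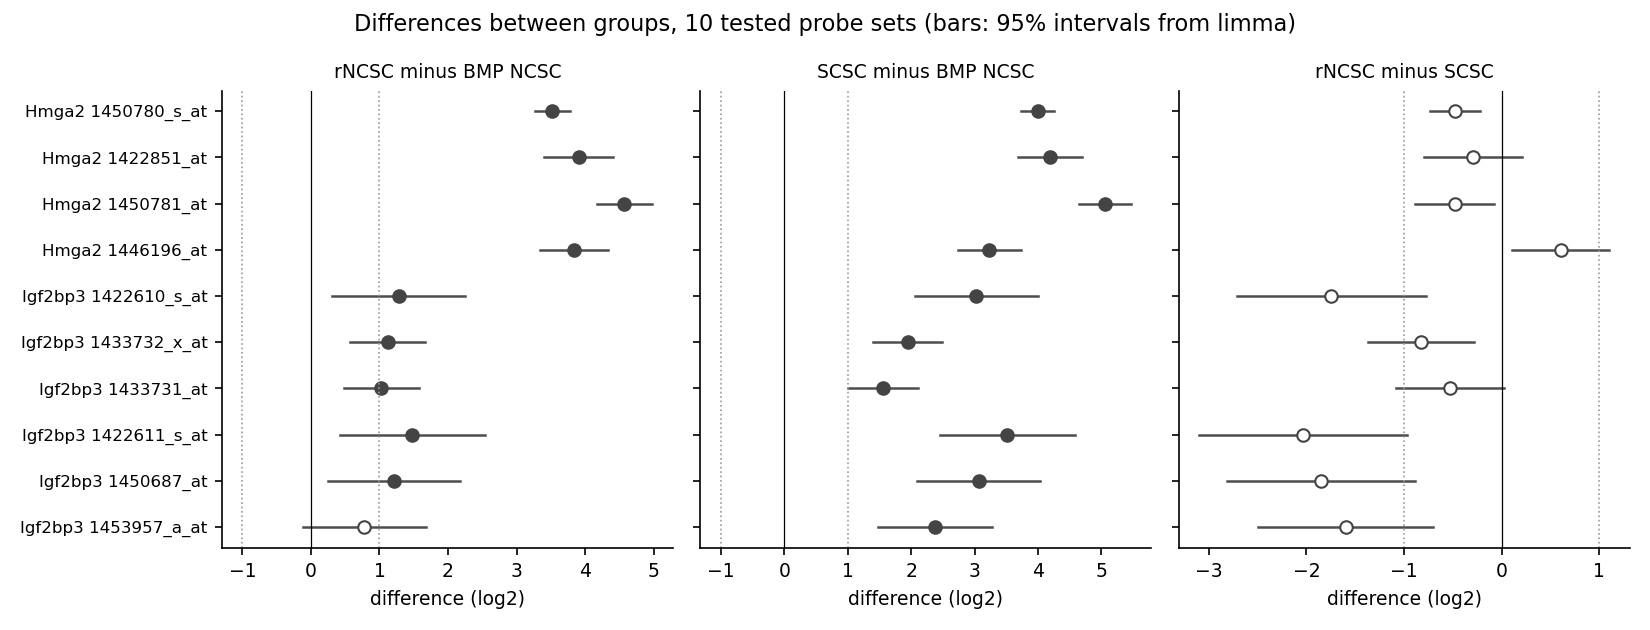
Differences of group means (log2) for the 10 tested member probe sets in the 3 comparisons, with 95% limma intervals. Filled points were called (adjusted p below 0.05 and a difference of at least 1), and dotted lines mark -1 and 1; the Hmga2 probe sets lie between 3.24 and 5.06 against BMP NCSC (1446196_at is below 5 there), and no point is filled for rNCSC against SCSC.

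Igf2bp3, the RNA-binding protein of the family with the strongest signal here, was highest in SCSC, lowest in BMP NCSC and spread in rNCSC. Its lead probe set 1422610_s_at read 9.61, 9.46 and 9.50 in SCSC, 7.06, 8.98 and 7.30 in rNCSC, and 6.41, 6.44 and 6.64 in BMP NCSC. The SCSC arrays lay together at the top, and 1 rNCSC array, replicate 2, lay nearer to them than to its own group. The means were 9.52 ± 0.077 in SCSC, 7.78 ± 1.05 in rNCSC and 6.49 ± 0.12 in BMP NCSC (SD, n = 3). Igf2bp3 was higher in SCSC than in BMP NCSC by 3.03 (SE 0.42, limma adjusted p = 0.00018), which is 8.16-fold. It was higher in rNCSC than in BMP NCSC by 1.28 (SE 0.42, adjusted p = 0.022), which is 2.43-fold. Both SEs rest on 1 spread pooled over the 3 groups, of which rNCSC had the largest SD (1.05).

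The other probe sets of Igf2bp3 fell into those with the same spread in rNCSC and those without it. Probe set 1422611_s_at read 6.32, 8.39 and 6.49 in rNCSC, 9.23, 9.02 and 9.06 in SCSC, and 5.45, 5.70 and 5.61 in BMP NCSC. Probe set 1450687_at read 5.70, 7.36 and 5.71 in rNCSC, 8.21, 7.91 and 8.21 in SCSC, and 5.01, 4.66 and 5.47 in BMP NCSC. Probe set 1453957_a_at read 4.77, 6.12 and 4.37 in rNCSC, 6.96, 6.68 and 6.40 in SCSC, and 4.16, 4.49 and 4.26 in BMP NCSC. In these 3 and the lead probe set, rNCSC replicate 2 lay 1.55 to 1.99 above the mean of the other 2 rNCSC arrays and 0.55 to 0.75 below the SCSC mean. Probe set 1433732_x_at read 7.16, 7.78 and 7.40 in rNCSC, 8.23, 7.95 and 8.65 in SCSC, and 6.47, 5.97 and 6.56 in BMP NCSC. Probe set 1433731_at read 7.37, 7.65 and 7.45 in rNCSC, 7.97, 7.69 and 8.40 in SCSC, and 6.56, 5.99 and 6.84 in BMP NCSC. In this pair the same array stood 0.50 and 0.25 above the other rNCSC arrays, so the array's distance depended on the probe set read.

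**Figure D3:**
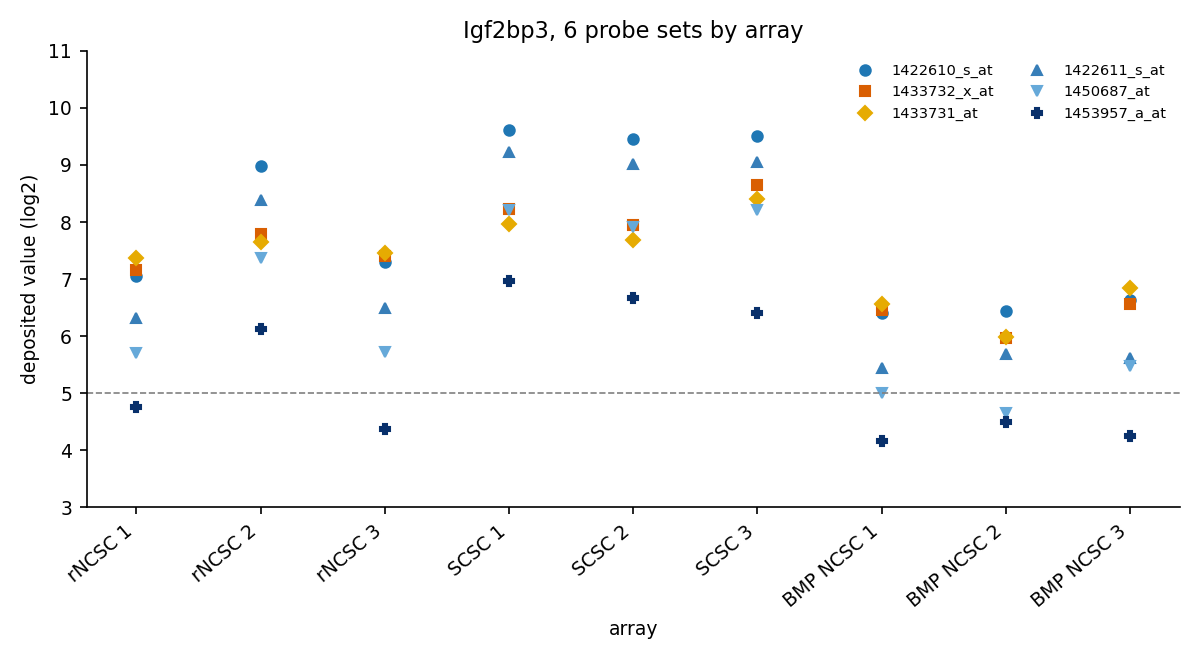
GCRMA log2 level of the 6 Igf2bp3 probe sets on each array of rNCSC, SCSC and BMP NCSC, with a dashed line at 5. In 4 probe sets rNCSC replicate 2 stands 1.55 to 1.99 above the mean of rNCSC replicates 1 and 3, and in the other 2 by 0.50 and 0.25.

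Against BMP NCSC, the 6 Igf2bp3 probe sets were called higher in SCSC, with differences from 1.56 to 3.52 and adjusted p from 7.5e-05 to 0.00050. In rNCSC, 5 of 6 were called higher, with differences from 1.03 to 1.48 and adjusted p from 0.0024 to 0.028. The exception was 1453957_a_at at 0.78 (95% interval -0.12 to 1.68, adjusted p = 0.10), whose rNCSC and BMP NCSC arrays overlapped, and which reached 5 on no BMP NCSC array. Over both genes, 9 of 10 member probe sets were called higher in rNCSC than in BMP NCSC, where 21.8% of all tested probe sets were. For SCSC against BMP NCSC the count was 10 of 10, where 23.8% were. Probe sets of 1 gene read the same message, so these counts describe 2 genes and not 10 separate events. Of the 10, 8 reached 5 in BMP NCSC as well, and 2 did not (1446196_at and 1453957_a_at).

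The rNCSC call of Igf2bp3 rested on single arrays. Without rNCSC replicate 2, over 19783 probe sets, the 6 differences from BMP NCSC were 0.68, 0.95, 0.95, 0.82, 0.66 and 0.26 in the order 1422610_s_at, 1433732_x_at, 1433731_at, 1422611_s_at, 1450687_at and 1453957_a_at. None reached 1, and the count of called member probe sets was 4 in place of 9, which were those of Hmga2. Of the 6, 5 kept an adjusted p below 0.05 (0.00059 to 0.030), and 1453957_a_at had 0.27. Without BMP NCSC replicate 2 the count was 5. No difference changed sign in either.

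Igf2bp3 read lower in rNCSC than in SCSC in the 6 probe sets, with differences from -2.03 to -0.53 and no overlap of arrays in any of them. None was called with all 9 arrays. The adjusted p ran from 0.20 to 0.39 and the unadjusted p from 0.0020 to 0.058, while 0.00502% of all probe sets tested were called. SCSC arrays wholly above rNCSC arrays were found for 13.0% of all tested probe sets, as said for Hmga2. The 95% interval of the lead probe set's difference ran from -2.71 to -0.78. Without rNCSC replicate 2, 4 of the 6 were called lower in rNCSC: 1422610_s_at at -2.34 (adjusted p = 0.00092), 1422611_s_at at -2.70 (0.00088), 1450687_at at -2.40 (0.010) and 1453957_a_at at -2.11 (0.010). The other pair had -0.99 (adjusted p = 0.13) and -0.61 (0.33). In that fit 25 probe sets were called higher in rNCSC and 58 lower, 0.420% of those tested.

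Over all probe sets, replicate 2 was not the rNCSC array that most often lay apart. Of the 19914 tested probe sets, 677 spanned at least 1.5 within rNCSC, against 95 in SCSC and 489 in BMP NCSC. The array lying farthest from the other 2 was replicate 3 for 432 of the 677, replicate 2 for 171 and replicate 1 for 74. Where it was replicate 2, it lay nearer to the SCSC mean than the mean of the other 2 rNCSC arrays did for 125 of 171. The mean of 8 neuron markers was 4.71, 5.59 and 4.88 on rNCSC arrays 1, 2 and 3 (5.18 to 5.62 in SCSC). The mean of 7 crest and Schwann cell markers was 3.22, 4.01 and 3.20, which came mainly from Tfap2b (2.32, 6.14 and 2.28) and Tfap2a (3.48, 5.18 and 3.51), transcription factors of crest and of other cells. Sox10 (4.24, 3.95 and 4.24), Snai2 (3.01, 2.87 and 2.99) and Foxd3 (3.06, 2.90 and 2.95) were lowest on replicate 2. Erbb3 (2.94, 3.34 and 2.97) and Ngfr (3.46, 3.68 and 3.45) were highest there. The values of these genes were all below 5, so no order of the rNCSC arrays was read from them. Cell cycle (11.66, 11.71 and 11.63) and CNS progenitor markers (11.80, 11.55 and 11.58) did not set replicate 2 apart. The part of other cell types in its Igf2bp3 level was not tested.

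Igf2bp1, the paralog of Igf2bp3 known for binding Actb and Myc messages, was below 5 on all arrays, with its 36 values between 2.86 and 4.73. Probe set 1418761_at read 4.73, 4.42 and 4.26 in SCSC, 3.65, 3.33 and 3.84 in rNCSC, and 3.58, 3.42 and 3.50 in BMP NCSC. Probe set 1455223_at read 4.56, 4.18 and 4.03 in SCSC, 2.93, 2.86 and 3.23 in rNCSC, and 3.28, 3.21 and 3.72 in BMP NCSC. The means in SCSC, rNCSC and BMP NCSC were 3.98 ± 0.13, 3.62 ± 0.22 and 3.39 ± 0.0036 for 1449210_at (SD, n = 3). They were 4.06 ± 0.082, 3.62 ± 0.068 and 3.76 ± 0.16 for 1459825_x_at. In 4 of 4 probe sets the SCSC arrays lay wholly above the rNCSC arrays, as they did for 8.51% of all probe sets. In the fit without the filter the 4 differences of SCSC from BMP NCSC were 0.97, 0.29, 0.58 and 0.85 for 1418761_at, 1459825_x_at, 1449210_at and 1455223_at, with limma adjusted p from 0.00057 to 0.034. None reached a difference of 1. Those of rNCSC from SCSC were -0.86, -0.44, -0.36 and -1.25, with adjusted p from 0.11 to 0.37.

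Among the tested members, the means of all 6 Igf2bp3 probe sets stood in the order SCSC, rNCSC, BMP NCSC. So did those of Hmga2 1450780_s_at (the lead probe set), 1422851_at and 1450781_at. Those of Hmga2 1446196_at stood in the order rNCSC (6.32), SCSC (5.71), BMP NCSC (2.48). With all 9 arrays, SCSC and rNCSC were not separated by a call in any of them. In rNCSC replicate 2, the array with the highest Igf2bp3 of its group, Hmga2 (10.92) lay with that of the other rNCSC arrays (10.78 and 10.90). The differences between members are of different probe sets and set no levels of 1 gene against another.

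The genes whose levels followed the members most closely over the 9 arrays differed for Hmga2 and Igf2bp3. For the lead probe set of Hmga2 they were Gspt1, Rnaseh2c and Dpy30, each with a Pearson r of 0.999, among 2389 of 10319 genes with r above 0.95. For Igf2bp3 they were Coro1a (r = 0.991), P2rx7 (0.982) and Gemin7 (0.979), among 28 genes above 0.95. P2rx7, an ATP-gated ion channel, read 3.98, 6.11 and 3.53 in rNCSC, 6.35, 6.74 and 6.43 in SCSC, and 3.41, 3.37 and 3.52 in BMP NCSC. All these points share the same 9 arrays and 3 groups.

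With the group means removed, so that the spread within groups was compared, Hmga2 was most like Arfgef2 (r = 0.960), Wdr12 (0.933) and Mtap (0.913). Igf2bp3 was most like Nkx2-2 (r = 0.988), Atl1 (0.987) and Slitrk1 (0.985), over 9 arrays. Nkx2-2, a transcription factor of the ventral spinal cord, read 4.35, 7.69 and 4.65 in rNCSC, 7.63, 7.50 and 7.06 in SCSC, and 2.29, 2.17 and 2.50 in BMP NCSC. Its rNCSC replicate 2 was at the SCSC level. Atl1, a protein that shapes the endoplasmic reticulum, had the same array out of line at 7.62 against 5.80 and 5.89. Its groups stood in another order, at 6.75 to 6.90 in SCSC and 9.79 to 10.00 in BMP NCSC. In Igf2bp3 and these 3 genes, rNCSC replicate 2 was the array farthest from its group mean among the rNCSC arrays. The 3 genes were chosen by their likeness to Igf2bp3 within groups, so the shared array follows from that choice.

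**Figure D4:**
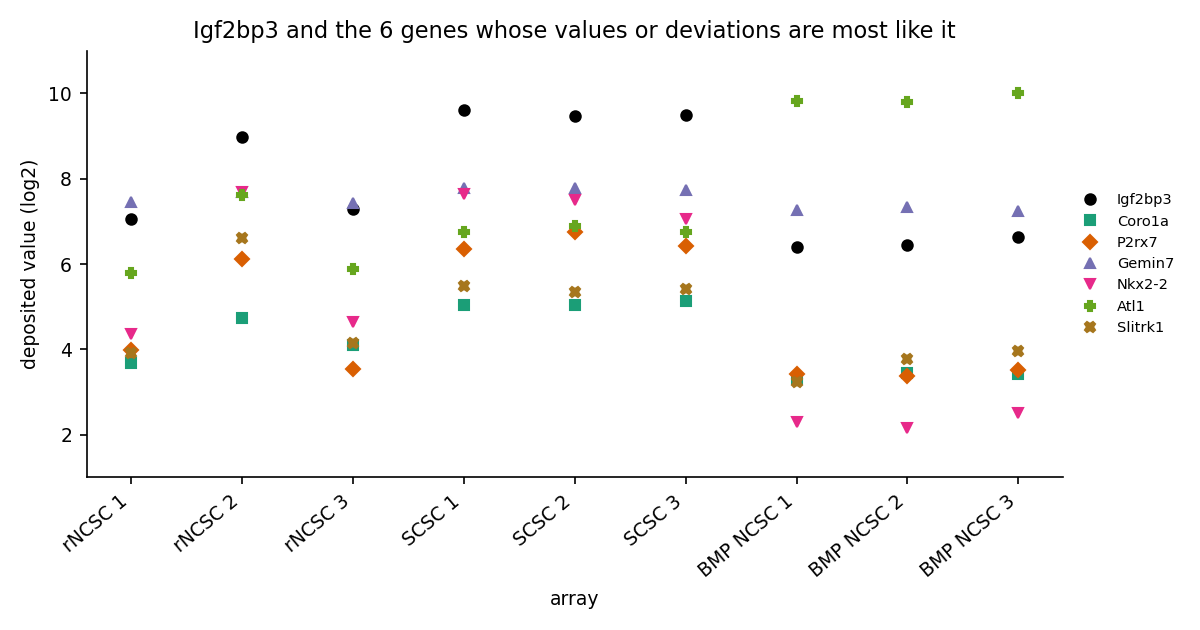
GCRMA log2 level of Igf2bp3 (lead probe set) and of genes most like it over the 9 arrays, by group. Coro1a, P2rx7 and Gemin7 were chosen by level, and Nkx2-2, Atl1 and Slitrk1 by deviations from the group means. In Igf2bp3 (8.98), P2rx7 (6.11) and Nkx2-2 (7.69) rNCSC replicate 2 stands above the other rNCSC arrays and near the SCSC arrays.

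The wider pathway was read from 7 lists with 1 probe set per gene, the one with the highest mean. In rNCSC against BMP NCSC, 21.3% of all 10319 genes tested were called higher and 22.6% lower. In SCSC against BMP NCSC the shares were 24.0% and 22.9%. In rNCSC against SCSC 0.00969% were called, and no gene of the 7 lists was among them with limma and all 9 arrays, where 1413 genes had an unadjusted p below 0.05. Centring each array on its median gene shifted the median difference over all genes from 0.069 to 0.32 for rNCSC and from 0.099 to 0.28 for SCSC. The calls then split into 2829 higher and 1976 lower for rNCSC, in place of 2197 and 2335.

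Genes that make or destroy let-7 had few calls. Of 19 tested of 21, 2 were called higher and 1 lower in rNCSC relative to BMP NCSC, and 3 higher and 1 lower in SCSC, with medians of 0.48 and 0.41. Tarbp2, a Dicer partner, was higher by 1.29 in rNCSC and 1.59 in SCSC, and the exonuclease Xrn2 by 1.04 and 1.26. The Argonaute gene Ago3 was the 1 called lower, at -1.50 and -2.02. Khsrp, known to promote let-7 processing, had 0.96 in rNCSC and was not called. The uridylyl transferases Tut4 (0.22 and 0.06) and Tut7 (-0.39 and -0.36), the enzymes Lin28 is known to recruit, were not called, and the exonuclease of uridylated let-7 precursors, Dis3l2, was under the filter in all groups (4.43, 4.45 and 4.45).

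Other known let-7 targets had calls in both directions. Of 23 tested of 31, 10 were called higher and 3 lower in rNCSC relative to BMP NCSC, and 12 higher and 3 lower in SCSC, with medians of 0.74 and 1.04. Dna2, a replication nuclease, was higher by 4.41 in rNCSC and 4.66 in SCSC. Myc, the growth transcription factor, was higher by 2.89 and 2.93. Those called lower were the transcription factor Plag1 (-2.85 and -2.91), the growth factor receptor Igf1r (-2.42 and -2.24) and the cyclin-dependent kinase Cdk6 (-2.42 and -1.45). The filter fixed the direction for Dna2, Trim71 and Mycn, which reached 5 on no BMP NCSC array, and for Plag1, which reached it on BMP NCSC arrays alone. Of the listed cell cycle genes, Rrm2 (4.25 and 4.49), Cdc25a (1.66 and 1.99) and Ccnd1 (1.35 and 1.47) moved with the cell cycle markers. Cdk6 and the cyclin gene Ccnd2 (-0.45 and -0.31, not called) had the opposite sign. The part of division in these genes was not tested.

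Trim71, a let-7 target known from early embryos, had 1 array out of line, rNCSC replicate 1. It read 4.21, 6.40 and 6.64 in rNCSC, 6.21, 5.45 and 5.90 in SCSC, and 4.32, 3.63 and 4.14 in BMP NCSC. It was called higher in rNCSC (1.72, limma adjusted p = 0.023) and in SCSC (1.82, adjusted p = 0.017), and without rNCSC replicate 2 the rNCSC call was lost, leaving 9 genes of the list higher. Mycn, chosen for description after its values were seen, read 4.70, 5.61 and 3.36 in rNCSC, 5.65, 6.08 and 5.36 in SCSC, and 3.25, 3.71 and 3.73 in BMP NCSC. It reached 5 on no BMP NCSC array and on 1 of 3 rNCSC arrays. Cdk6 read 6.56, 8.43 and 5.61 in rNCSC, 7.71, 7.82 and 7.98 in SCSC, and 9.07, 9.47 and 9.31 in BMP NCSC, and without rNCSC replicate 2 it was called lower in rNCSC than in SCSC.

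The chromatin side of the pathway had calls in both directions. Of 6 other high mobility group genes tested, of 9 listed, 3 were called higher in rNCSC and in SCSC than in BMP NCSC and none lower, with medians of 1.80 and 1.89: Hmgb3 (5.15 and 5.31), Hmgb2 (3.06 and 3.02) and Hmgn5 (2.89 and 2.93). Hmgn3 had -0.56 and -0.66 and was not called. In the axis through which Hmga2 is known to restrain the Ink4 and Arf cell cycle inhibitors, 1 of 5 tested was called higher and 2 lower in rNCSC, and 1 higher and 3 lower in SCSC. Cdkn2b, an Ink4 inhibitor, had means of 5.68 in rNCSC, 5.44 in SCSC and 10.28 in BMP NCSC, and was lower by -4.61 and -4.85. Junb, known in this axis as an activator of Cdkn2a, had -4.36 and -4.28 and reached 5 in BMP NCSC alone. Cdkn2a, the Ink4a and Arf gene, had -0.62 in rNCSC (adjusted p = 0.17) and was called lower in SCSC at -1.50. Cdkn2c, another inhibitor of the Ink4 family, was higher by 3.36 and 3.37. The median of the 5 was -0.62 in rNCSC and -1.50 in SCSC, and Bmi1, a repressor of Cdkn2a, had 0.99 and 0.88 and was not called.

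The RNA side was mixed as well. Of 7 tested of 11 messages known to be bound by Igf2bp proteins, 3 were called higher and 3 lower in both comparisons with BMP NCSC, with medians of 0.20 and 0.18. Myc, Mapk4 (2.54 and 2.75) and Mapt, the tau gene (2.70 and 2.10), were higher, where Mapk4 and Mapt reached 5 on no BMP NCSC array. The laminin gene Lamb2 (-3.48 and -3.70), the surface receptor Cd44 (-2.04 and -2.33) and the ubiquitin ligase gene Btrc (-2.11 and -1.51) were lower. Igf2, whose message gave the family its name, was under the filter, with means of 3.80, 3.69 and 4.50, and H19 had no value.

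Partners of Igf2bp proteins in ribonucleoprotein granules were all tested, 11 of 11, with 2 called higher in rNCSC, and 3 higher and 1 lower in SCSC. Both medians were 0.73. Syncrip had 1.04 and 1.02, the neuronal RNA-binding gene Elavl2 3.69 and 3.91, Elavl1 0.95 (not called) and 1.06, and Stau1 -0.90 (not called) and -1.06. Hnrnpu (0.87) and Ybx1 (0.73) were not called in rNCSC. Of 11 tested of 12 genes of the m6A mark, which Igf2bp proteins are known to read, 2 were called higher in each comparison and none lower, with medians of 0.073 and 0.20. They were the writer Mettl3 (1.38 and 1.26), with Ythdc2 (1.16) in rNCSC and Zc3h13 (1.05) in SCSC, while Virma had -0.53 in rNCSC and was not called.

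In the comparisons with BMP NCSC, the scaling moved these lists without turning a median's sign. With arrays centred on the median, let-7 factors called higher numbered 3 in rNCSC and 5 in SCSC, granule partners 4 in each with none lower, genes of the Hmga2 axis 2 in each and m6A genes 2 and 3. The rNCSC medians were then 0.32 for the m6A genes and 0.44 for the Igf2bp-bound messages. With quantile normalization the Hmga2 axis had 2 called higher in rNCSC. In rNCSC against SCSC, centring turned the median of the other high mobility group genes from -0.0059 to 0.064. It turned that of the granule partners from -0.043 to 0.027.

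**Figure D5:**
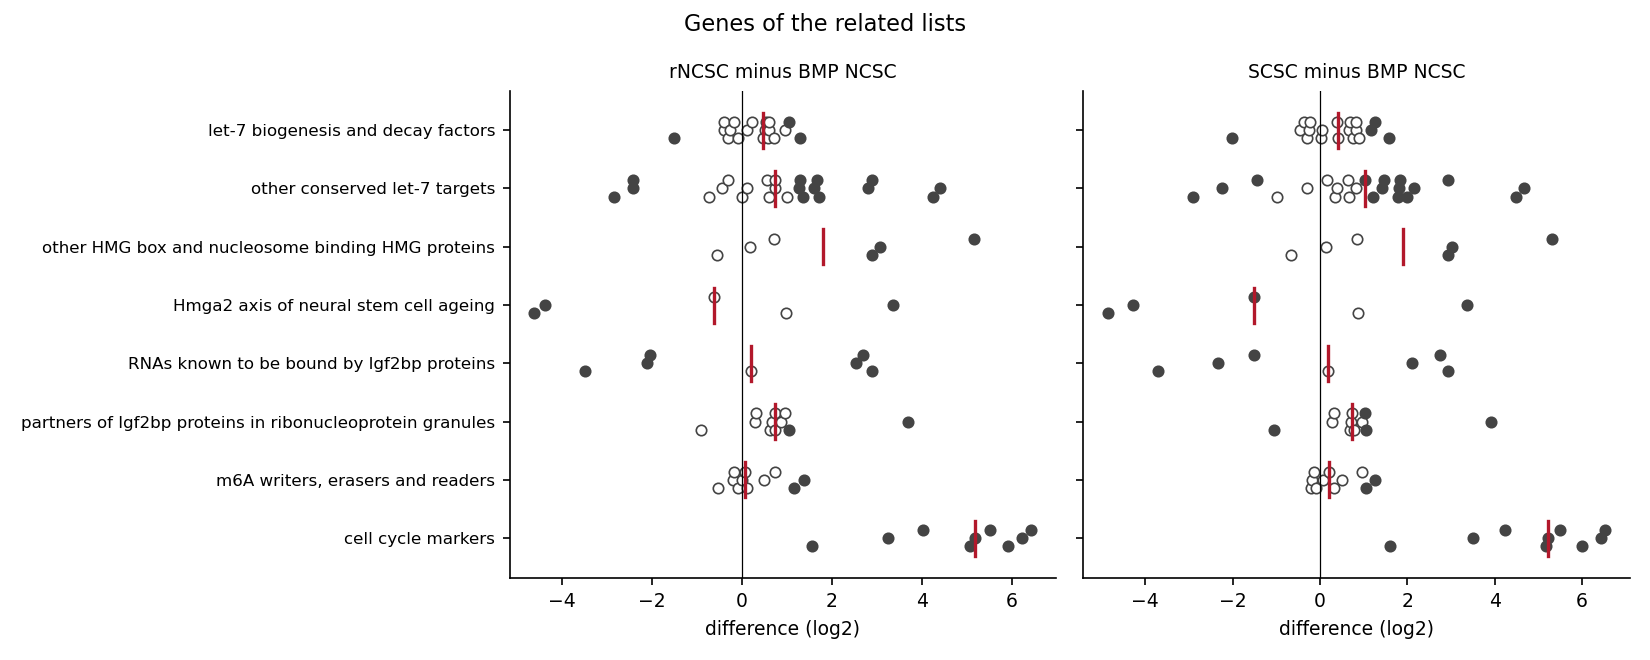
Differences from BMP NCSC (log2) for the tested genes of the pathway lists and the cell cycle markers, 1 point per gene, filled where called, with a red bar at the list's median. The cell cycle markers lie highest (medians 5.17 and 5.22), and the lists of Igf2bp-bound messages and of the Hmga2 axis have called genes on both sides of 0.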

How the data were processed

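The deposited values are log2 levels per probe set, 1 column for each of 9 arrays. Per the submitters' processing notes the authors used GCRMA. Its version and the genome build are not given in the sources used here. This method normalizes arrays to each other and draws unexpressed transcripts together at low values. Control probe sets (64 of 45101) were left out, and 34945 probe sets had 1 gene symbol and 932 several. Samples were grouped by their titles. The comparisons were made in limma (version 3.58.1, R 4.3.3) from 1 model of 3 group means on 9 arrays with moderated variances. P-values are two-sided, with Benjamini-Hochberg correction across the 19914 probe sets or 10319 genes that reached 5 on at least 3 arrays. Calls needed both an adjusted p below 0.05 and a log2 difference of 1 or more in size, taken as first group less second. The steps were tested on simulated data.

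The members and lists were chosen with earlier results of these data known. Named genes were every member probe set, up to 4 genes of each list with the smallest p in rNCSC against BMP NCSC, 5 fixed markers, and 3 genes most like each tested member by Pearson r; further list genes were named after their values were seen. Besides the lists above, neuron markers had 2 of 5 called higher and 1 lower in rNCSC relative to BMP NCSC, and 4 higher in SCSC. Over all genes tested, 21.3% were called higher and 22.6% lower in rNCSC, and 24.0% and 22.9% in SCSC. The filter fixed the direction of the neuron markers Dcx and Elavl3, which reached 5 on no BMP NCSC array. Without rNCSC replicate 2 the rNCSC counts of neuron markers were 1 and 1, with Dcx lost. CNS progenitor markers had 8 of 9 higher in each, crest and Schwann cell markers 6 of 6 lower, and mesenchyme and cartilage markers 8 of 9 lower. The filter fixed most of these directions: 6 of 9 CNS progenitor markers reached 5 on no BMP NCSC array, and 4 of 6 crest and 7 of 9 mesenchyme markers on BMP NCSC arrays alone. The precision is limited by the number of arrays.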

Additional observations from a re-analysis of the deposited data

How the results depend on the processing

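The Hmga2 calls against BMP NCSC held in each alternative run: other filters, variance models and scalings, the 6 arrays of a comparison alone, a stricter p, the replicate block and leaving out each array. The Igf2bp3 calls of SCSC against BMP NCSC held in them too. The count of member probe sets called in rNCSC against BMP NCSC, 9, ranged from 4 to 10 when 1 array was left out, was 7 with the 6 arrays alone and 6 at an adjusted p below 0.01. The count in SCSC against BMP NCSC, 10, was 10 without any 1 array, and 11 with no filter, which added Lin28b. With 1 probe set per gene both counts were 2, since 2 genes are tested. For rNCSC against SCSC, 0 member probe sets were called, and 0 to 4 with 1 array left out. The counts of pathway genes called were 31, 37 and 0; they ranged from 29 to 32, 33 to 37 and 0 to 1 with 1 array left out, and were 65 and 67 against BMP NCSC with no limit on size. Centring arrays on the median gave 36 and 41. No called value changed sign.

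With the replicate block the member counts were 8, 10 and 0 (Igf2bp3 1450687_at had an adjusted p of 0.051), and the pathway counts 31, 37 and 0. The samples share only a number: same-number deviations correlated at 0.054 to 0.35, with 6 of 9 pairs above 0.1, and 8 of 9 comparisons gave an array's own number as its best match. Values below 5 have no certain size, which limits Lin28a, Lin28b and Igf2bp1, and 3 arrays per group limit rNCSC, where 1 array decides the Igf2bp3 calls.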
